A study of Homo sapiens with 8 samples.

Results

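This account covers 10 genes for acute-phase and transport proteins of the blood plasma, chosen by name from the 58206 genes of the table: AHSG, TTR, TF, SERPINA1, SERPINA3, AMBP, HP, HPX, ORM1 and RBP4. The data are mRNA-seq counts for Alexander1, an established epithelial line from a human hepatocellular carcinoma, grown in serum-containing medium, with no cytokine treatment named in the labels. The 4 parental libraries (genotype wt, Axin1 -) carry, per the series' design text, an Axin1 without its GSK3-binding region and a constantly active Wnt pathway. The 4 libraries of the derivative (genotype Axin1 +) come from cells that received Axin1 by VSVG-pseudotyped retrovirus from an Addgene plasmid, followed by clonal selection in hygromycin B. The labels do not say how many clones were used, so Axin1 and a trait of the selected cells cannot be told apart. They also do not say whether libraries of a group were separate cultures, and p-values measure only the spread between these samples.

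Hepatocytes make most plasma proteins. In the acute-phase response, cytokines such as interleukin-6 act through STAT3, and interleukin-1 through NF-kappaB and C/EBP factors. Liver output of positive acute-phase proteins then goes up and that of negative ones goes down. Among the genes described here, SERPINA1, SERPINA3, HP, HPX and ORM1 encode positive acute-phase proteins, and AHSG, TTR, TF and RBP4 encode negative ones. AMBP encodes a precursor that is cut into alpha-1-microglobulin and bikunin.

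Library totals were 11232951 to 15263761 counts in the parental group and 12372436 to 26400782 in the other. AXIN1 mRNA was not higher in the libraries labelled Axin1 +, at 37.7 to 48.2 CPM (counts relative to a common scaled library total) against 47.4 to 55.3 CPM (edgeR adjusted p = 0.267). These counts do not separate transferred from endogenous AXIN1, and whether reads of the transferred copy were counted is not given in the sources used here. Those libraries are therefore called restored-labelled. Parental replicate 1 stood apart on the second principal component (61.5, against -30.3 to 25.0 for the others). Restored-labelled replicate 1 lay nearest the parental libraries on the first (22.2, against 48.7 to 56.8 for the rest of its group). Of 7 hepatocyte markers, all were expressed in both groups, with summed levels of 8090 to 9380 CPM and 10300 to 14300 CPM, but they did not move together: FGA and FGB were 2.27-fold and 4.13-fold higher (adjusted p = 0.00115 and 6.39e-05) and APOA2 4.4-fold lower (0.000243). The 5 biliary markers summed to 24.9 to 53.3 and 39.2 to 77 CPM, with CFTR 5.83-fold higher (adjusted p = 0.00173). The 3 stromal markers summed to 2.57 to 3.15 and 1.18 to 4.34 CPM, with PDGFRB 7.29-fold lower (adjusted p = 0.00454). The 3 immune markers summed to at most 0.712 CPM, and the endothelial markers CDH5 and VWF had at most 6 counts in a library. The third endothelial marker, PECAM1, stood at 5.18 CPM ± 0.951 in the parental and 48.2 CPM ± 10.3 in the restored-labelled group (SD over n = 4 libraries each), and the part of these markers in the results below was not tested.

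The plasma protein genes split into abundant, low and nearly silent ones. Of the 10 genes, 8 passed the filter on low counts and were tested, while HP and SERPINA3 did not. With edgeR (quasi-likelihood test, Benjamini-Hochberg over 14289 genes, threshold 0.05), AHSG, TF and SERPINA1 were lower in the restored-labelled libraries. TTR and HPX were higher. Over all tested genes, 8.77% were called lower and 10.4% higher, 19.2% in all. Of the 4 negative acute-phase genes, all tested, 2 were lower and 1 higher. Of the 5 positive ones 3 were tested, with 1 lower and 1 higher. Calls in both directions thus occurred in either class, though those of TTR and SERPINA1 were lost with some libraries left out. The median log2 fold change of the 8 tested genes was -0.53, against 0.003 over all tested genes. In 4 of the 8 (AHSG, TF, SERPINA1, HPX) the CPM values of the groups did not overlap, as in 23.9% of all tested genes.

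**Figure D1:**
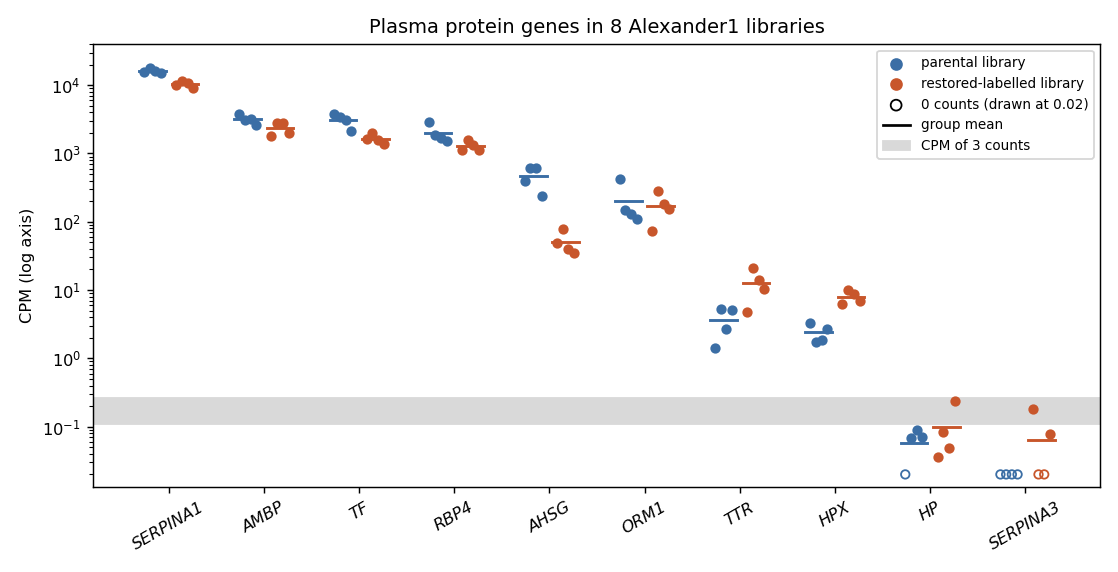
CPM of each gene (log axis) in the 4 parental (blue) and 4 restored-labelled (orange) libraries. Dots are libraries in replicate order, bars are group means, open symbols are libraries with 0 counts, and the grey band marks the CPM worth of 3 counts. The groups are separate for SERPINA1, TF, AHSG and HPX, and no library of HP or SERPINA3 exceeds 0.234 CPM.

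Levels were compared between genes per length, as RPKM (CPM per kilobase of union exon length). SERPINA1 stood first in both groups, at 3290 RPKM ± 242 in the parental and 2110 RPKM ± 226 in the restored-labelled libraries (SD over n = 4 libraries each). AMBP followed at 1550 RPKM ± 253 and 1150 RPKM ± 259, and RBP4 at 1370 RPKM ± 409 and 887 RPKM ± 150. Library by library, AMBP exceeded RBP4 in all of the restored-labelled group and in parental replicates 2, 3 and 4. In parental replicate 1 RBP4 was the higher, at 1960 against 1880 RPKM. ORM1 (226 and 191 RPKM), AHSG (198 and 21.3 RPKM) and TF (119 and 62.1 RPKM) formed the next tier. TTR (1.52 and 5.24 RPKM) and HPX (0.664 and 2.20 RPKM) came next, and HP and SERPINA3 were at or under 0.0186 RPKM. The union length of TF, 26199 bases, is drawn out by a transcript model whose coding part has 2094 bases. Per kilobase of coding sequence, a scale chosen after the data were seen, TF reached 1490 RPKM ± 350 and 778 RPKM ± 127 and ranked 4 of 10 in both groups. On that scale RBP4 and AMBP changed places in the parental group, at 3280 RPKM ± 984 and 3000 RPKM ± 489, within their spread.

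By count, SERPINA1 was the first or second most abundant gene in each of the 8 libraries. It supplied 64.6% ± 4.66 of the counts of the 10 genes in the parental and 65.4% ± 2.44 in the restored-labelled group (SD over n = 4 libraries each). The 10 genes took 2.43% ± 0.175 of all counts in the parental and 1.62% ± 0.150 in the restored-labelled libraries (SD over n = 4 libraries each). The ranges of this share, 2.19% to 2.60% and 1.45% to 1.80%, did not overlap. Since this is bulk RNA, fewer expressing cells and less RNA per cell cannot be told apart.

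Short stretches of promoter are shown for the genes whose calls went in opposite directions, since the factors that drive plasma protein genes bind near the start site. The 250 bases before each RefSeq start (GRCh38.p14) were searched on both strands for motifs chosen after the values were known. They were TTCNNNGAA (STAT), TTGCNNAA (C/EBP), CTTTGA (TCF/LEF) and GTTAAT (HNF1). RefSeq windows were found for 8 of the 10 genes. None was available for HP or TTR, so TTR, which was called higher, was not searched. Each line below gives 30 bases 5′ to 3′ on the gene's strand, with the match in capitals.
AHSG, C/EBP match on the opposite strand, plus strand, chr3:186612990-186613019: atcctgtatccTTATGCAAttcttccggca
TF, C/EBP match on the opposite strand, plus strand, chr3:133746284-133746313: gagaggggcgaTTGGGCAAcccggctgcac
TF, TCF/LEF match on the opposite strand, plus strand, chr3:133746314-133746343: aaacacgggaggTCAAAGattgcgcccagc
SERPINA1, TCF/LEF match on the opposite strand, minus strand, chr14:94390856-94390885: caacTCAAAGggagagggtgacttgtcccg
HPX, C/EBP match, minus strand, chr11:6441172-6441201: ctgcttgaaaaTTGCTGAAgggggttgggg
The C/EBP letters thus occurred before a start of AHSG and TF, both lower, of HPX, which was higher, and of RBP4, which did not pass. The TCF/LEF letters occurred before TF, the upstream start of SERPINA1 and RBP4, and the STAT letters before RBP4. The C/EBP letters occurred in 9.05% of all 35116 windows of this length, the STAT letters in 6.57% and the TCF/LEF letters in 11.2%. TF, SERPINA1 and RBP4 each had several windows, so these shares per window are not shares per gene. The HNF1 letters occurred only before the downstream start of SERPINA1, known as the hepatocyte start, 76 bases before it. They occurred in 6.23% of all windows. The STAT, C/EBP and TCF/LEF letters were not found before that start. The windows of AMBP, ORM1 and SERPINA3 held none of the motifs searched. A match describes letters only, not a bound site.

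AHSG had the largest fold change, in size, among the 8 tested genes. It encodes fetuin-A, a plasma glycoprotein that keeps calcium phosphate soluble, and it belongs to the negative acute-phase class. In order of replicate number, as for all genes below, the parental libraries had 399, 622, 604 and 242 CPM and the restored-labelled ones 48.6, 77.2, 40.3 and 34.7 CPM. The lowest parental library lay above the highest restored-labelled one by more than the whole range of the latter. The log2 fold change was -3.22 (SE 0.338, 95% interval -3.96 to -2.48, edgeR adjusted p = 0.000201), or 9.32-fold lower. AHSG (ENSG00000145192) lies on chromosome 3 from 186612923 to 186621318 (GRCh38, plus strand). The median log2 fold change of its 40 nearest tested genes was 0.003. Its relative FETUB, from the neighbouring stretch of the same chromosome, had at most 3 counts in any library, and KNG1, the kininogen gene of that cluster, stood at 19.8 CPM ± 3.59 and 26 CPM ± 6.66 (SD over n = 4 libraries each, edgeR adjusted p = 0.196).

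TF encodes transferrin, the iron carrier of plasma. Its level was 3800, 3450, 3100 and 2100 CPM in the parental and 1600, 2000, 1550 and 1370 CPM in the restored-labelled libraries. The groups did not overlap, although parental replicate 4 (2100 CPM) and restored-labelled replicate 2 (2000 CPM) came close. The log2 fold change was -0.94 (SE 0.200, 95% interval -1.38 to -0.50, edgeR adjusted p = 0.00993), or 1.91-fold lower. TF (ENSG00000091513, chromosome 3, 133745956 to 133796640, plus strand) shares exon bases with INHCAP and SRPRB on the same strand, and its 40 neighbours had a median of -0.17.

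RBP4 and TTR, for the paired carriers of vitamin A, had values of opposite sign, of which that of TTR passed the test. RBP4 encodes retinol-binding protein, and TTR encodes transthyretin, which carries thyroxine and binds the retinol-loaded RBP4 in plasma. RBP4 stood at 2850, 1860, 1670 and 1540 CPM in the parental and 1110, 1580, 1320 and 1130 CPM in the restored-labelled libraries. Parental replicate 1 was the highest, and the groups overlapped at parental replicate 4 and restored-labelled replicate 2. The log2 fold change of -0.62 (SE 0.210) did not pass the test (95% interval -1.09 to -0.16, edgeR adjusted p = 0.0603). It passed with DESeq2 (adjusted p = 0.0238), with edgeR on unfiltered genes (0.0232) and when parental replicate 4 was left out (0.0459). Without parental replicate 1 the value was -0.40, and without both libraries numbered 1 it was -0.33. RBP4 (ENSG00000138207) lies on chromosome 10 from 93591687 to 93601744 on the minus strand.

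TTR was expressed far lower, on 16 to 79 counts per parental and 134 to 280 per restored-labelled library. Its level was 1.42, 5.35, 2.67 and 5.08 CPM in the parental and 4.81, 21.2, 13.8 and 10.4 CPM in the restored-labelled libraries. Restored-labelled replicate 1 fell among the parental libraries, and the other 3 lay above all of them. TTR rose 3.38-fold, a log2 fold change of 1.76 (SE 0.473, 95% interval 0.72 to 2.80, edgeR adjusted p = 0.0259). The call was lost without parental replicate 3 (adjusted p = 0.0648), without restored-labelled replicate 2 (0.0660), 3 (0.0662) or 4 (0.0549), and in limma-voom (0.0552), with log2 fold changes from 1.39 to 1.84. TTR (ENSG00000118271) lies on chromosome 18 from 31557010 to 31599021 on the plus strand, and the median over its neighbours was 0.12. The ratio of RBP4 to TTR in RPKM was 3300, 576, 1030 and 500 in the parental and 382, 123, 158 and 180 in the restored-labelled libraries. RBP4 mRNA was thus the more abundant of the pair per length in each library, and the ranges of the ratio did not overlap.

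**Figure D2:**
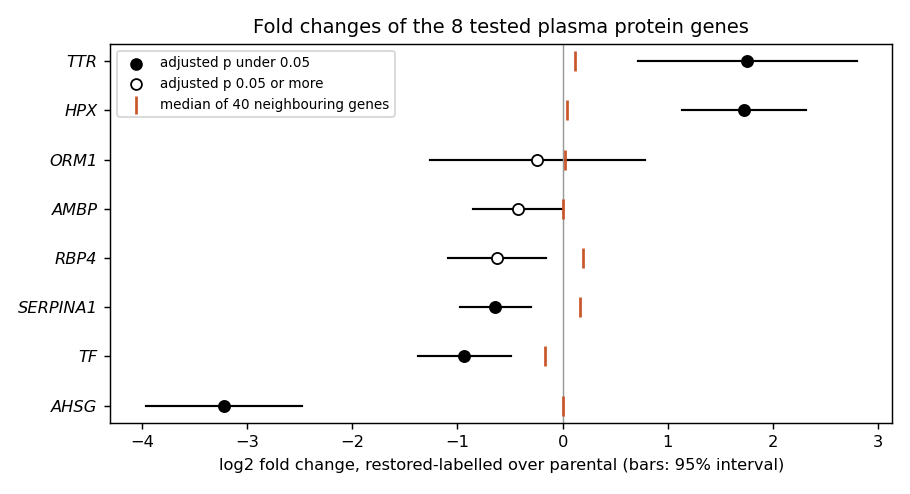
Log2 fold change of the 8 tested genes, restored-labelled over parental, with 95% intervals (bars). Filled dots passed an adjusted p of 0.05 and orange ticks give the median of the 40 nearest tested genes. AHSG at -3.22 lies apart from the other lower genes, and the neighbour medians stay between -0.17 and 0.19.

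Among the positive acute-phase genes, SERPINA1 was the most abundant. It encodes alpha-1-antitrypsin, the main inhibitor of neutrophil elastase in plasma. Its level was 15700, 17600, 16300 and 14800 CPM in the parental and 10200, 11600, 10600 and 8940 CPM in the restored-labelled libraries. The groups did not overlap, and the coefficients of variation, 7.37% and 10.7%, were the smallest of the 8 tested genes. SERPINA1 fell 1.56-fold, a log2 fold change of -0.64 (SE 0.153, 95% interval -0.98 to -0.30, edgeR adjusted p = 0.0164). The call was lost without parental replicate 2 (adjusted p = 0.0578) and without restored-labelled replicate 3 (0.0554) or 4 (0.0650), with log2 fold changes between -0.65 and -0.57. SERPINA1 (ENSG00000197249) lies on chromosome 14 from 94376747 to 94390693 on the minus strand, amid neighbours with a median of 0.17. RefSeq gives it separate starts, of which the downstream one is known as the hepatocyte start. The counts per gene do not separate transcripts from these starts.

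HPX encodes hemopexin, which binds free heme. Its level was 3.29, 1.76, 1.87 and 2.72 CPM in the parental and 6.24, 9.99, 8.67 and 6.99 CPM in the restored-labelled libraries, on 21 to 38 and 121 to 179 counts. All restored-labelled libraries lay above all parental ones. HPX rose 3.30-fold, a log2 fold change of 1.72 (SE 0.268, 95% interval 1.13 to 2.31, edgeR adjusted p = 0.00175), close to the value of TTR. HPX (ENSG00000110169) lies on chromosome 11 from 6431049 to 6442617 on the minus strand, and its neighbours had a median of 0.04. The ratio of AHSG to HPX follows from the opposite changes of these genes and is no separate result. AHSG exceeded HPX per length 187-, 546-, 498- and 137-fold in the parental and 12.0-, 11.9-, 7.17- and 7.67-fold in the restored-labelled libraries.

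ORM1 encodes orosomucoid, or alpha-1-acid glycoprotein, a carrier of basic drugs. Its level was 427, 149, 131 and 108 CPM in the parental and 72.0, 284, 181 and 152 CPM in the restored-labelled libraries. The groups overlapped widely, with parental replicate 1 highest and restored-labelled replicate 1 lowest of all 8. The log2 fold change was -0.24 (SE 0.465, 95% interval -1.26 to 0.78, edgeR adjusted p = 0.748). The direction rested on those libraries: it was 0.41 without parental replicate 1 (adjusted p = 0.407) and 0.01 without restored-labelled replicate 1 (adjusted p = 0.989). With both left out, a choice made after seeing the data, ORM1 was higher in the remaining restored-labelled libraries (log2 fold change 0.67, adjusted p = 0.0233). ORM1 (ENSG00000229314) lies on chromosome 9 from 114323056 to 114326475 on the plus strand.

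Reads of ORM1 can be shared with ORM2, since the principal transcripts are 95.9% identical over 760 aligned bases, and how the authors assigned such reads is not given in the sources used here. ORM2 showed the same order of libraries at the extremes, with 73.2, 18.0, 14.4 and 15.4 CPM in the parental and 9.11, 35.9, 25.2 and 21.5 CPM in the restored-labelled group. The ratio of ORM1 to ORM2 counts was 7.55 ± 1.44 and 7.52 ± 0.449 (SD over n = 4 libraries each). Summing both genes gave a log2 fold change of -0.26 (edgeR adjusted p = 0.733).

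HP and SERPINA3 were nearly silent. HP encodes haptoglobin, the scavenger of free hemoglobin, and SERPINA3 encodes alpha-1-antichymotrypsin, both strongly induced in the acute phase. HP had 0, 1, 1 and 1 counts in the parental and 1, 1, 1 and 6 in the restored-labelled libraries. SERPINA3 had 0 counts in each parental library, which allows levels of up to 0.203 to 0.267 CPM, and 5, 0, 0 and 2 counts in the restored-labelled ones. At this depth no difference between the groups could be measured for either gene. HP (ENSG00000257017) lies on chromosome 16 from 72054592 to 72061055 (plus strand). Its principal transcript is 96.3% identical to that of HPR, which had at most 5 counts. SERPINA3 (ENSG00000196136) lies on chromosome 14 from 94612377 to 94624055 (plus strand), in the same serpin cluster as the abundant SERPINA1, and shares exon bases with the same-strand gene ENSG00000273259.

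AMBP completes the set. Its level was 3840, 3100, 3140 and 2590 CPM in the parental and 1790, 2790, 2830 and 2020 CPM in the restored-labelled libraries. Parental replicate 4 lay within the restored-labelled range. The log2 fold change of -0.43 (SE 0.193, 95% interval -0.85 to -0.004) did not pass the test (edgeR adjusted p = 0.146). The value was -0.32 without parental replicate 1 and -0.21 without both libraries numbered 1. AMBP (ENSG00000106927) lies on chromosome 9 from 114060127 to 114078472 on the minus strand.

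**Figure D3:**
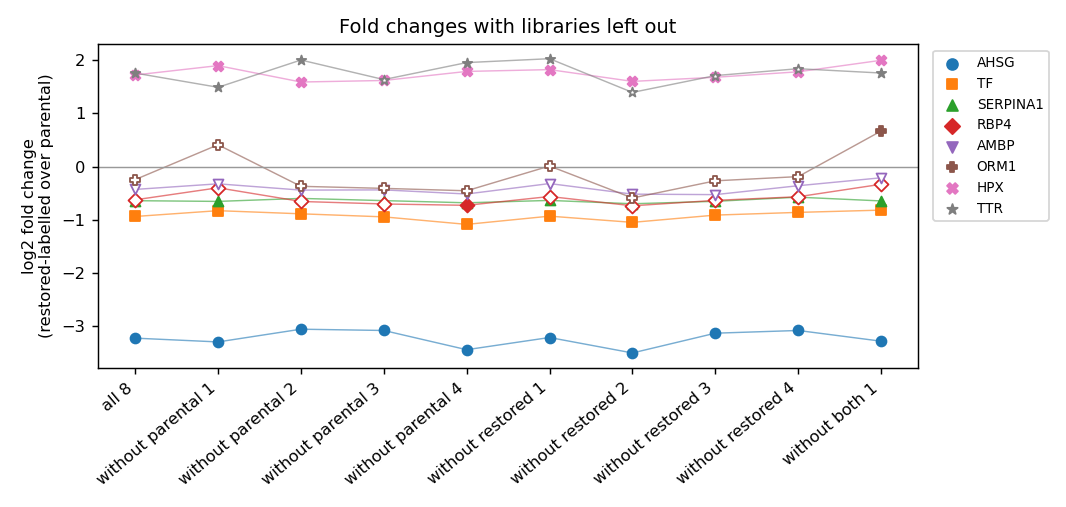
Log2 fold change of each tested gene (y axis) with all 8 libraries, with each library left out in turn, and without both libraries numbered 1 (x axis). Filled symbols passed an adjusted p of 0.05. AHSG, TF and HPX stay filled throughout, TTR and SERPINA1 do not, and ORM1 crosses 0.

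How much the libraries of a group differed depended on the gene. Coefficients of variation in the parental group were 73.5% for ORM1, 52.3% for TTR, 38.8% for AHSG, 30.2% for HPX, 30% for RBP4, 23.6% for TF and 16.3% for AMBP. In the restored-labelled group they were 50.7%, 54.6%, 37.6%, 21.1%, 16.9%, 16.3% and 22.5% in the same order. Parental replicate 1 was the highest parental library for TF, AMBP, RBP4, ORM1 and HPX and the lowest for TTR. Restored-labelled replicate 2 was the highest of its group for AHSG, TTR, TF, SERPINA1, HPX, ORM1 and RBP4.

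The rest of the acute-phase programme was described with 7 gene lists, drawn up with earlier results of these data known. The counts of each list below stand beside 10.4% called higher and 8.77% lower over all tested genes, 19.2% in all. Whether any list differed from these shares was not tested. Of 20 other acute-phase genes 14 were tested, and 7 were higher and 1 lower, with a median log2 fold change of 0.28. The number higher was 4 without parental replicate 2 or 3 or restored-labelled replicate 1, and the number lower was 3 without parental replicate 1, 2 without restored-labelled replicate 1 and 0 without restored-labelled replicate 4. SAA1 and SAA2, for serum amyloid A, had at most 3 and 1 counts per parental library and 10.5 CPM ± 3.58 and 2.68 CPM ± 1.02 in the restored-labelled group (SD over n = 4 libraries each). They were at least 44.1-fold and 11.3-fold higher, computed against 3 counts per parental library (log2 fold change 5.84 and 4.96, edgeR adjusted p = 8.76e-06 and 0.000116). The SAA1 and SAA2 transcripts are 96.4% identical, so the split between the genes is uncertain.

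LCN2, for the siderophore-binding lipocalin, stood at 79.6, 15.6, 15.5 and 11.3 CPM in the parental and 227, 415, 251 and 258 CPM in the restored-labelled libraries (log2 fold change 3.24, SE 0.574, adjusted p = 0.00371). LBP, for lipopolysaccharide-binding protein, had a log2 fold change of 1.69 (SE 0.322, adjusted p = 0.00541). CRP, the C-reactive protein gene, passed at 2.88 (SE 0.854, adjusted p = 0.0376), but its values overlapped and 64.8 CPM in restored-labelled replicate 1 stood against 3.9 to 12.8 CPM in the rest of the group. Without that library the value was 1.25 (adjusted p = 0.0994), and the call was also lost without parental replicate 2 (0.0987), 3 (0.0882) or 4 (0.0870) and in limma-voom (2.11, 0.171). LRG1 and SERPING1 also passed, with adjusted p of 0.0346 and 0.0402, with log2 fold changes of 0.59 and 1.89. LRG1 lost the call without any single library other than parental replicate 1 or 4 (adjusted p 0.0607 to 0.0907), and SERPING1 without any other than parental replicate 1 (0.0660 to 0.110). Without parental replicate 1 the log2 fold change of SERPING1 was 3.05 (adjusted p = 1.05e-05) and that of LCN2 was 4.35 (1.54e-06). The lower gene was SOD2, a mitochondrial superoxide dismutase, at 939 CPM ± 120 and 473 CPM ± 175 (SD over n = 4 libraries each, log2 fold change -0.99, adjusted p = 0.0134), with a call that ended without restored-labelled replicate 4 (adjusted p = 0.0509). LBP, CRP, LRG1, SERPING1 and SOD2 were singled out after their values were seen.

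Among 14 other plasma carriers, 10 were tested, with 2 lower and 0 higher and a median of -0.02. At an unadjusted p under 0.05 edgeR had 1 higher carrier, and DESeq2 and limma-voom called 0. The number called higher was 1 with edgeR on unfiltered genes and 1 without restored-labelled replicate 1. It was 2 without both libraries numbered 1. GC, for the vitamin D-binding protein, stood at 49.1, 184, 239 and 219 CPM in the parental and 10.5, 7.51, 5.12 and 4.49 CPM in the restored-labelled libraries. The groups were separate, and its log2 fold change of -4.64 (SE 0.480, adjusted p = 0.000181) exceeded that of AHSG in size. SHBG, for sex hormone-binding globulin, was lower at -1.13 (SE 0.287, adjusted p = 0.0207), a call lost without parental replicate 2 or 3 or restored-labelled replicate 4 (adjusted p 0.0545 to 0.0766). AFP, for alpha-fetoprotein, had a value of -1.14 (SE 0.371) that did not pass (adjusted p = 0.0538), and passed without restored-labelled replicate 1 (-1.65, adjusted p = 0.00261) and in 6 other alternatives.

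Of 11 other plasma protease inhibitors 9 were tested, 3 higher and 1 lower, with a median of 0.52. SERPINA4 (kallistatin) and SERPINA5 (protein C inhibitor), which lie in the chromosome 14 serpin cluster with SERPINA1, rose with log2 fold changes of 3.93 (SE 0.419, adjusted p = 0.000221) and 3.40 (SE 0.311, adjusted p = 7.48e-05), opposite to SERPINA1. Their parental levels were low, at 0.394 CPM ± 0.188 for SERPINA4 (2 to 8 counts) and 0.936 CPM ± 0.381 for SERPINA5 (6 to 20 counts). In the restored-labelled group they were 6.11 CPM ± 2.37 and 9.92 CPM ± 1.69 (SD over n = 4 libraries each). The annotated spans of SERPINA4 (94561091 to 94569913) and SERPINA5 (94561442 to 94593120) overlap, and sharing of reads was not tested. SERPINF1, for pigment epithelium-derived factor and named after its values were seen, was the other higher gene, at 28.3 CPM ± 9.77 and 293 CPM ± 125 (log2 fold change 3.37, SE 0.370, adjusted p = 0.000237). ITIH2, an inter-alpha-inhibitor heavy chain that is joined to the bikunin made from AMBP, fell from 404 CPM ± 75.2 to 95.5 CPM ± 15.6 (SD over n = 4 libraries each, log2 fold change -2.08, SE 0.173, adjusted p = 3.91e-05).

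**Figure D4:**
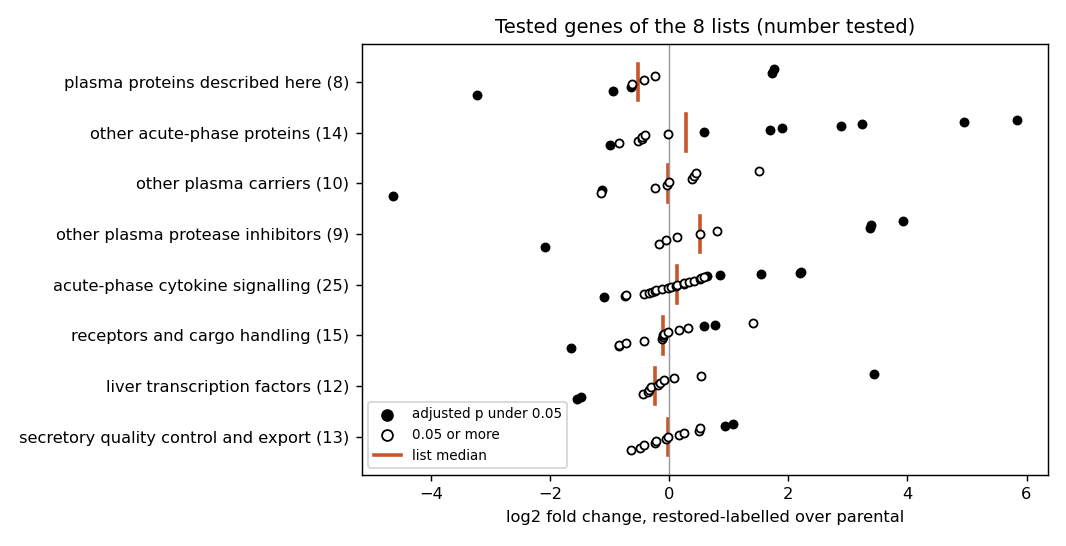
Log2 fold change (x axis, restored-labelled over parental) of the tested genes of the 10 plasma proteins and of 7 related lists (y axis, number tested in parentheses). Filled dots passed an adjusted p of 0.05 and orange lines are list medians. The list of other acute-phase proteins holds SAA1 at the far right, and GC lies farthest left.

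Signalling genes of the acute phase numbered 28, of which 25 were tested, 5 higher and 2 lower, with a median of 0.13. STAT3 itself rose from 91.6 CPM ± 6.45 to 166 CPM ± 17.8 (SD over n = 4 libraries each), by 0.86 on the log2 scale (SE 0.119, adjusted p = 0.000985). OSMR, the oncostatin M receptor, rose from 5.42 CPM ± 0.469 to 25.0 CPM ± 10.6 (2.21, SE 0.266, adjusted p = 0.000423), and an exon of it overlaps RICTOR on the opposite strand. IL6R, the ligand-binding chain of the interleukin-6 receptor, fell from 130 CPM ± 37.3 to 60.5 CPM ± 4.62 (-1.10, SE 0.185, adjusted p = 0.00279). IL6 had 0 counts in each library. CEBPB and CEBPD, for the C/EBP factors of the response, had values of -0.11 and -0.02 (adjusted p = 0.691 and 0.961).

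Receptors and cargo-handling genes numbered 21, with 15 tested, 2 higher, 2 lower and a median of -0.10. HMOX1, for the heme oxygenase that degrades the heme hemopexin delivers, fell from 1070 CPM ± 69.2 to 592 CPM ± 94.3 (SD over n = 4 libraries each, log2 fold change -0.85, SE 0.145, adjusted p = 0.00304). HFE, a regulator of iron sensing, rose from 45.0 CPM ± 6.32 to 76.9 CPM ± 10.7 (0.77, adjusted p = 0.00539). LRP2, for megalin, was lower at -1.64 (SE 0.406, adjusted p = 0.0183), with overlapping values and a call lost without parental replicate 2 or restored-labelled replicate 3 or 4 (adjusted p 0.0531 to 0.0626). The transferrin receptor gene TFRC stood at 602 CPM ± 185 and 595 CPM ± 143 (SD over n = 4 libraries each, adjusted p = 0.971), with a 95% interval of -0.57 to 0.53 for its log2 fold change.

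Liver transcription factors numbered 12, all tested, with 1 higher, 2 lower and a median of -0.24. NR1H4, the bile acid receptor FXR, rose from 1.63 CPM ± 0.481 to 17.8 CPM ± 7.51 (SD over n = 4 libraries each, 3.44, SE 0.401, adjusted p = 0.000354). ONECUT2 fell from 81.5 CPM ± 9.89 to 28.0 CPM ± 7.46 (-1.54, SE 0.196, adjusted p = 0.000598). TBX3 was lower at -1.47 (adjusted p = 0.0252), a call lost without any single library other than the pair numbered 1 (adjusted p 0.0550 to 0.0781). HNF4A, a driver of plasma protein genes, had a value of 0.09 that did not pass (adjusted p = 0.772). Of 13 genes for folding and export of secreted proteins, all tested, 2 were higher and 0 lower, with a median of -0.02. In edgeR 2 were lower at an unadjusted p under 0.05, and DESeq2 and limma-voom called 0 lower. Without both libraries numbered 1, 1 was called lower. CANX, for calnexin, rose from 769 CPM ± 94.4 to 1620 CPM ± 368 (1.08, SE 0.176, adjusted p = 0.00239), SEC24A rose by 0.94 (adjusted p = 0.0126), and PDIA4 at -0.48 did not pass (adjusted p = 0.0892).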

How the data were processed

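RNA was sequenced from 8 samples, 4 per group, and groups and replicate numbers were taken from sample titles. The deposited values are raw counts of reads by gene, not normalized, judging by their whole numbers. The submitters' processing notes name bcl2fastq, fastp 0.23.1, STAR 2.7.4 and the build GRCh38. Counting program, annotation and strand setting are not given in the sources used here. Columns were matched by the names in the labels, and 0 belonged to no sample. Gene symbols were found for 57495 of 58206 identifiers, and positions and lengths come from GENCODE 29 (GRCh38) for 57943.

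The tests used edgeR 4.0.16 (R 4.3.3): filterByExpr (minimum count 10, minimum total 15), TMM scaling, and the quasi-likelihood test without covariates, two-sided, adjusted by Benjamini-Hochberg over 14289 genes, threshold 0.05. Each standard error is the size of the log2 fold change divided by the root of its F statistic. Between 99.75% and 99.85% of a library's counts lay in tested genes. Libraries of a group differed by more than counting noise (chi-square per degree of freedom 6.1 to 54.9). Floors are 3 counts and cover counting error only. The fit was tested on simulated data.

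Alternatives were DESeq2 size factors, total counts, no filter, a filter at a mean of 1 CPM, limma-voom (limma 3.58.1), DESeq2 1.42.0 (Wald), the replicate number as a block, and each library left out. Leaving out both libraries numbered 1, summing ORM1 with ORM2 and coding length were added after seeing the data. The genes described and the lists were chosen with earlier results of these data known. The rule for naming genes took all 10 plasma protein genes and the 3 genes with the smallest p in each of 7 lists. Other list genes were named outside this rule, with their values known. Among these are ORM2, HPR, FETUB, KNG1, IL6, CEBPB, CEBPD, TFRC and HNF4A, besides those marked as chosen after their values were seen. Some results are not reported here.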

Additional observations from a re-analysis of the deposited data

Results flagged for a closer look

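One library stood out within its group among the 10 genes. ORM1 in parental replicate 1 had 427 CPM, against 108 to 149 CPM in the other 3 parental libraries, a gap of 0.870 of the group's range that exceeds Dixon's 95% critical value for 4 samples. Chance flags about 1 in 20 such groups, and 20 were looked at, of which SERPINA3 in the parental group had no spread. ORM2, which shares sequence with ORM1, had 73.2 CPM in the same library against 14.4 to 18.0 CPM. RBP4 was also highest there, at 2850 CPM against 1540 to 1860 CPM, with a gap of 0.751 that did not reach the critical value.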

How the results depend on the processing

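Over 16 alternatives, AHSG (log2 fold change -3.50 to -3.05), TF (-1.08 to -0.82) and HPX (1.59 to 1.997) kept their direction and their call, and AMBP (-0.53 to -0.21) was never called. ORM1 reversed to 0.41 without parental replicate 1, to 0.01 without restored-labelled replicate 1 and to 0.67 without both, and the cause was not tested, while its values with single libraries left out ran from -0.59 to 0.41. The number of the 10 genes called higher was 2, 1 in limma-voom and 1 to 2 with single libraries left out. The number called lower was 3, and 2 to 4 with single libraries left out. Over all genes, 2738 were called, 1394 to 3523 with single libraries left out (1508 without parental replicate 2, 1531 and 1394 without restored-labelled replicate 3 and 4) and 4623 without both libraries numbered 1. With single libraries left out, higher and lower calls ran from 0 to 1 and 1 to 3 for carriers, 4 to 7 and 1 to 4 for signalling, 1 to 3 and 1 to 3 for receptors, and 1 and 1 to 2 for transcription factors. Scaling by total counts alone moved the median of all genes to 0.09 and gave 1724 higher and 868 lower calls, 66.5% higher against 54.2%. Replicate numbers did not pair the samples (correlations of same-numbered deviations -0.06, 0.01, -0.03 and 0.23). With the replicate number as a block, 2033 genes were called, and SERPINA1 stood at -0.64 with an adjusted p of 0.0502 and LRG1 at 0.63 with 0.0665. Depth limits HP and SERPINA3, with at most 6 counts in a library.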
